A study of Mus musculus with 12 samples.

Results

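The genes described here encode proteins of the cytosolic ribosome, the particle that translates messenger RNA outside mitochondria. They were taken by symbol from probe sets that the platform annotation gives exactly 1 gene symbol, using symbols that start with Rpl or Rps and a number, with at most one closing a, x, y or l, together with Rplp0, Rplp1, Rplp2 and Rpsa. The rule found 67 of 17097 genes, 43 of the large subunit and 24 of the small subunit, and each gene was read from its probe set with the highest mean over the 12 arrays. A test was made for 66 of them, whose probe set exceeded a log2 signal of 2.77, the 40th percentile of all values, on at least 3 arrays, and 65 exceeded it on all 12. Ribosomal protein genes without such a probe set were not analysed here.

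A cytosolic ribosome joins a small subunit, which reads the codons of the messenger RNA, to a large subunit, which forms the peptide bonds and lets the new chain out through a tunnel. Each subunit is built in the nucleolus from ribosomal RNA and one copy of most of its proteins, so their genes are used in every cell and are usually transcribed at high and similar rates. Messenger RNAs of ribosomal proteins start with a short run of pyrimidines, called a TOP motif, through which mTOR and LARP1 regulate their translation as a group.

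Both kinds of macrophage came from co-cultures of bone marrow-derived macrophages from C57BL/6 mice with TT9423, a neuroblastoma line that had formed spheres overnight on agar. The groups were macrophages from inside the spheres at 24 h, macrophages that stayed outside the spheres at 24 h, and the same pair at 48 h, with 3 replicates in each group. Replicates were separate experiments, each pooling the cells of several wells, and no agent was added to any group. In-sphere cells were freed by enzymes and taken as CD11b-positive cells on magnetic columns, and the labels do not say whether the outside cells were handled alike. A single tumour line in culture limits the model, and 48 h rests on the titles and the time label, since the protocol text on all samples speaks of a 24 h co-culture.

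Signal was the deposited log2 value of an Affymetrix 3' expression array, and no total count exists for such data. All 12 macrophage identity genes were above the filter level on every array, 1 being higher and 3 lower in spheres at 24 h and 2 higher and 4 lower at 48 h, with a log2 summed signal of 14.56 to 14.82 in spheres and 14.67 to 14.87 outside at 24 h, and of 14.65 to 14.74 in spheres and 14.80 to 14.86 outside at 48 h. Summed marker signals of other cell types, and most genes of cell division, differed between the compartments, but the markers within a cell type list did not all move alike. All these marker counts stand beside 15.8% of all genes higher and 13.6% lower at 24 h, and 15.2% higher and 22.3% lower at 48 h. Neural marker signal was 8.85 to 9.75 in spheres and 7.34 to 7.47 outside at 24 h, and 9.48 to 9.68 in spheres and 7.18 to 7.22 outside at 48 h, on the same log2 scale. Of 19 neural markers on the array, 13 were tested, 3 were higher at 24 h and 4 at 48 h with 0 lower, and Gata3, Tubb3, Chga, Nefl and Nefm were at or under the filter level on every array. The median log2 difference of the 13 was 0.023 at 24 h and 0.019 at 48 h, with 6 of the 13 below 0 at each time. Dlk1 (8.20 in spheres and 3.82 outside at 24 h) and Gap43 (6.97 and 2.98) had the most in-sphere signal of these markers. The summed signal leans on these genes and does not describe the neural list as a whole. Dlk1 was not in the written marker plan, nor were Prtn3, Lcn2, Cxcr2 and Acta2 of the lists below, so these sums are no independent measure of cell types. Fibroblast marker signal was 10.97 to 11.96 in spheres and 9.44 to 9.96 outside at 24 h, and 11.47 to 11.51 in spheres and 9.39 to 10.10 outside at 48 h, with 5 of 10 genes higher and 2 lower at 24 h and 6 higher and 2 lower at 48 h. Col1a1, Acta2 and Lum had lower means in spheres at both times. Granulocyte marker signal ran the other way, at 14.32 to 14.77 in spheres and 15.48 to 15.75 outside at 24 h, and 13.71 to 14.40 in spheres and 15.19 to 15.61 outside at 48 h. Of the 11 genes 8 were lower and 0 higher at 24 h, and 8 were lower and 1 higher at 48 h. Elane, Mpo and Prtn3 had higher means in spheres at both times, Prtn3 the most at 48 h (7.50 in spheres and 5.35 outside). Of 19 DNA replication and mitosis genes 15 were higher and 1 lower in spheres at 24 h, with a median log2 difference of 1.31, and 18 were higher and 0 lower at 48 h, with a median of 2.46. The beta-actin control, whose 3' minus 5' log2 signal grows with RNA degradation, read 0.350 to 0.604 in spheres and 0.224 to 0.324 outside at 24 h, and 0.393 to 0.416 in spheres and 0.370 to 0.396 outside at 48 h. The Gapdh control read -0.124 to 0.425 in spheres and -0.043 to 0.169 outside at 24 h, and 0.110 to 0.146 in spheres and 0.053 to 0.098 outside at 48 h. The actin values thus separated the compartments at 24 h and overlapped at 48 h, and the Gapdh values overlapped at 24 h and separated at 48 h. The part of these cell types, of cell division and of RNA quality in the ribosomal protein values was not tested, and in such bulk samples fewer cells of a type and less RNA per cell cannot be told apart. In mean log2 signal 1 array differed from the rest, in-sphere replicate 3 of 48 h, at 4.06, while the other 11 arrays had 4.20 to 4.22. In-sphere replicate 1 of 24 h had the lowest macrophage signal of the 12 arrays (14.56) and the highest neural (9.75) and fibroblast (11.96) signal. These arrays also had the lowest array weights, 0.235 and 0.347.

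Promoters are shown for 4 genes called higher in spheres at both times (Rpsa, Rpl13 by its brightest probe set, Rps18 and Rpl14), for Rpl39l, which was called lower, and for its relative Rpl39, which was not called. Each window holds 60 bases before the RefSeq transcript start and 25 from it, read on the transcript strand in the GRCm38.p6 build. Capitals mark runs of at least 8 bases that are all C or T, wherever they lie in the window. The RefSeq start lies within such a run for Rps18 and Rpl14 and outside the runs for Rpsa, Rpl13, Rpl39 and Rpl39l. The windows are those of Rpsa (chr9:120127706-120127790, plus strand), Rpl13 (chr8:123102290-123102374, plus), Rps18 (chr17:33955641-33955725, minus), Rpl14 (chr9:120571457-120571541, plus), Rpl39 (chrX:37085198-37085282, minus) and Rpl39l (chr16:10170168-10170252, plus).
Rpsa: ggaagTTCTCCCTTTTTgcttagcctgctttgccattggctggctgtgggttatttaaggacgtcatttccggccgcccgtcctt
Rpl13: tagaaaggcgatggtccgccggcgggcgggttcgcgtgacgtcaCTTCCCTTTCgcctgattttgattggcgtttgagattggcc
Rps18: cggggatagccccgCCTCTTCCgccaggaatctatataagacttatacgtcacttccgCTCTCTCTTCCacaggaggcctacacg
Rpl14: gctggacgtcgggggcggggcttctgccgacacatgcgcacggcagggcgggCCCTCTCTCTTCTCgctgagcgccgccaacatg
Rpl39: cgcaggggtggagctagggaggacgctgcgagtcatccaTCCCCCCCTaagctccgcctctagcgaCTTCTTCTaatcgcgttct
Rpl39l: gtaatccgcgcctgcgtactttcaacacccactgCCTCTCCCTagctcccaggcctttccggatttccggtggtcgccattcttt

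RefSeq held promoters of 53 of the 67 genes, with 64 windows because some genes have several starts. A pyrimidine run lay in 38 of the 64 windows, or 59.4%, and in 32.4% of the 32851 windows of all genes. The run covered the RefSeq start in 15 windows, or 23.4%, and in 3.86% of all. The letters CTTCCG, the core that ETS-family factors bind, were searched on both strands of the full 300 bases and occurred in 64.1% of the ribosomal protein promoters and 16.9% of all promoters. TATAAA on the transcript strand of the window occurred in 3 windows, or 4.69%, and in 3.27% of all. Large subunit promoters had the run in 57.9% and CTTCCG in 60.5%, and small subunit promoters in 61.5% and 69.2%. Among the 6 printed, the CTTCCG search found a match for Rpsa, Rps18, Rpl39 and Rpl39l and none for Rpl13 and Rpl14. Matches of this kind describe letters only.

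Ribosomal protein genes were among the brightest on the arrays. Of the 66 tested, 59 ranked in the top 200 of all genes by mean signal, and 62 genes with no closing l in the symbol had mean log2 signals of 10.65 to 12.93. Signals of different probe sets do not rank transcripts by abundance, so levels are compared only within a gene. The remaining 4 tested genes were Rps27l at 10.72, and Rpl14, Rpl39l and Rps15a at 5.96, 4.36 and 2.96. Rpl3l, a paralog of Rpl3 known from heart and skeletal muscle, exceeded the filter level on 0 of 12 arrays, with a mean of 2.07, and was not tested. Replicates of these genes lay close together, with a median residual SD of 0.0731 on the log2 scale against 0.204 for all tested genes. The moderated standard errors of their differences had a median of 0.102, against 0.163 for all genes, because limma shrinks each variance toward a value shared by all genes.

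Nearly all tested genes of the set, read from their brightest probe sets, had slightly more signal in the in-sphere cells at both times. At 24 h 64 of the 66 differences were above 0, with a median log2 difference of 0.14, against -0.0068 for all 12488 genes tested. At 48 h 63 were above 0, with a median of 0.20, against -0.10 for all genes. On in-sphere replicate 3 of 48 h the median deviation of all genes from their own means was -0.22, against 0.026 and 0.0098 on replicates 1 and 2. With array weights the all-gene median difference at 48 h was -0.0399, so the value of -0.10 depends on how that array is treated. These counts were lower in some alternatives. Without probe sets that can match several transcripts, 23 of 28 tested genes were above 0 at 24 h and 21 at 48 h. With arrays centred on the median of all tested genes, 55 of the 66 were above 0 at 24 h and 64 at 48 h. Among the 62 bright genes without a closing l, 62 differences at 24 h and 61 at 48 h were above 0, and their medians equalled 1.104-fold and 1.149-fold. Brighter genes among these 62 tended to have smaller differences, with a Spearman correlation of mean signal and difference of -0.362 at 24 h and -0.511 at 48 h. The Pearson correlations were -0.285 and -0.383, and the cause was not tested. Genes with the larger difference at 24 h tended to have the larger at 48 h, with a Pearson correlation of 0.851 and a Spearman correlation of 0.772 over those 62 genes, which shared arrays within each time and were measured in separate arrays between times.

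**Figure D1:**
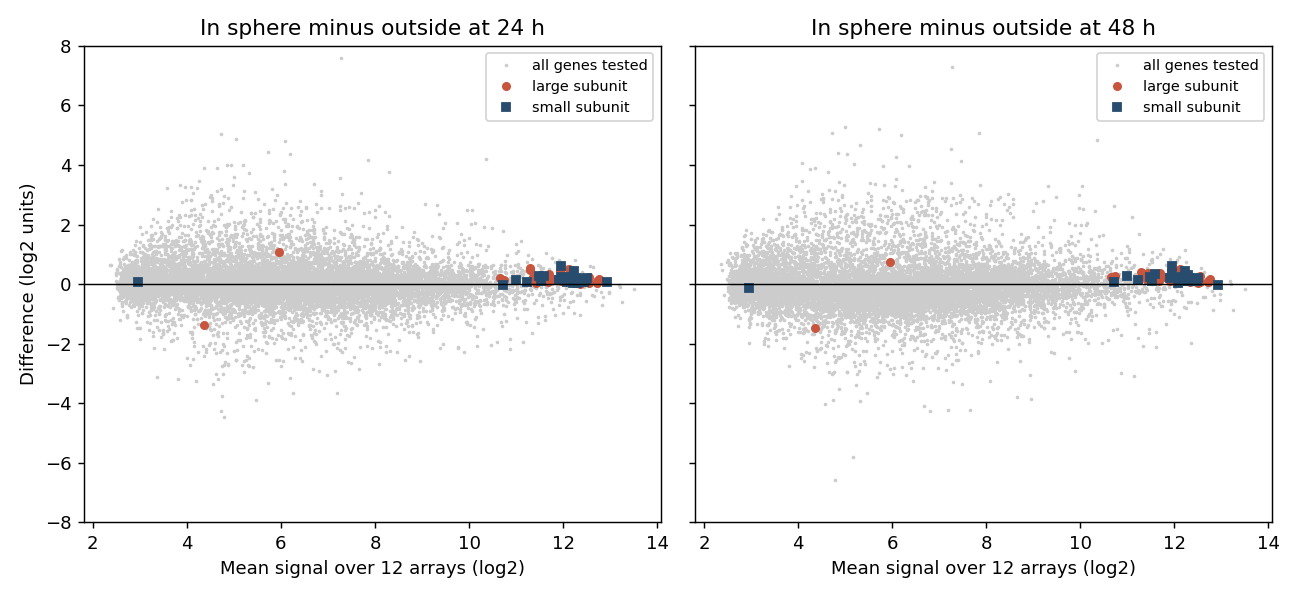
Log2 difference of in-sphere minus outside macrophages (vertical) against mean log2 signal over 12 arrays (horizontal) at 24 h (left) and 48 h (right). Grey points are the 12488 genes tested, and coloured points are the 42 large and 24 small subunit genes. Most ribosomal protein genes form a tight group at the bright end just above 0, and Rpl14 (above) and Rpl39l (below) lie away from it at lower signal.

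Few of these small differences passed the test gene by gene. By limma with Benjamini-Hochberg adjustment over all genes, at an adjusted p under 0.05, 8 of the 66 were higher in spheres at 24 h, or 12.1%, where 15.8% of all genes were higher, and 1 was lower, or 1.52%, where 13.6% of all genes were lower (29.4% in either direction). At 48 h 15 were higher, or 22.7%, against 15.2% of all genes, and 1 was lower, or 1.52%, against 22.3% (37.5% in either direction). The 24 h share of higher calls thus did not exceed that of all genes. All 8 genes higher at 24 h were also higher at 48 h, which is 53.3% of the 48 h list, and Rpl39l was the lower gene at both times. The arrays of more genes separated fully. At 24 h all 3 in-sphere arrays were above all 3 outside arrays for 35 of the 66 genes, or 53%, against 22% of all genes, and below them for 1, against 21.5% of all genes. At 48 h they were above for 59 genes, or 89.4%, against 20.7% of all genes, and below for 1, against 31%. All 35 genes that separated at 24 h did so at 48 h.

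Which genes were called depended on the spread assumed for them. A fit in which the prior variance follows the mean signal (limma with trend and robust) kept all of these calls and made 23 of the 66 higher at 24 h and 34 at 48 h. In that fit 16.2% of all genes were higher at 24 h and 15.7% at 48 h. The 48 h count of the main fit also fell when a single 48 h array was left out, which leaves fewer arrays in a group. It fell to 6 without in-sphere replicate 1 or outside replicate 3 of 48 h, to 7 without outside replicate 1 or 2, and to 8 without in-sphere replicate 2, and it was 12 without in-sphere replicate 3. In the fits with 6 to 8 genes, 12.5% to 12.9% of all genes were higher, against 15.2% with all arrays. Leaving out any 1 array kept the 48 h median of the 66 genes at 0.186 to 0.214. The genes nearest the threshold at 24 h were Rpl29 inside it (0.35, adjusted p = 0.0369 by limma) and Rps15 outside it (0.28, adjusted p = 0.0627). At 48 h they were Rpl36 inside (0.36, adjusted p = 0.0449, which the replicate block moved outside) and Rpl28 outside (0.29, adjusted p = 0.0533).

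**Figure D2:**
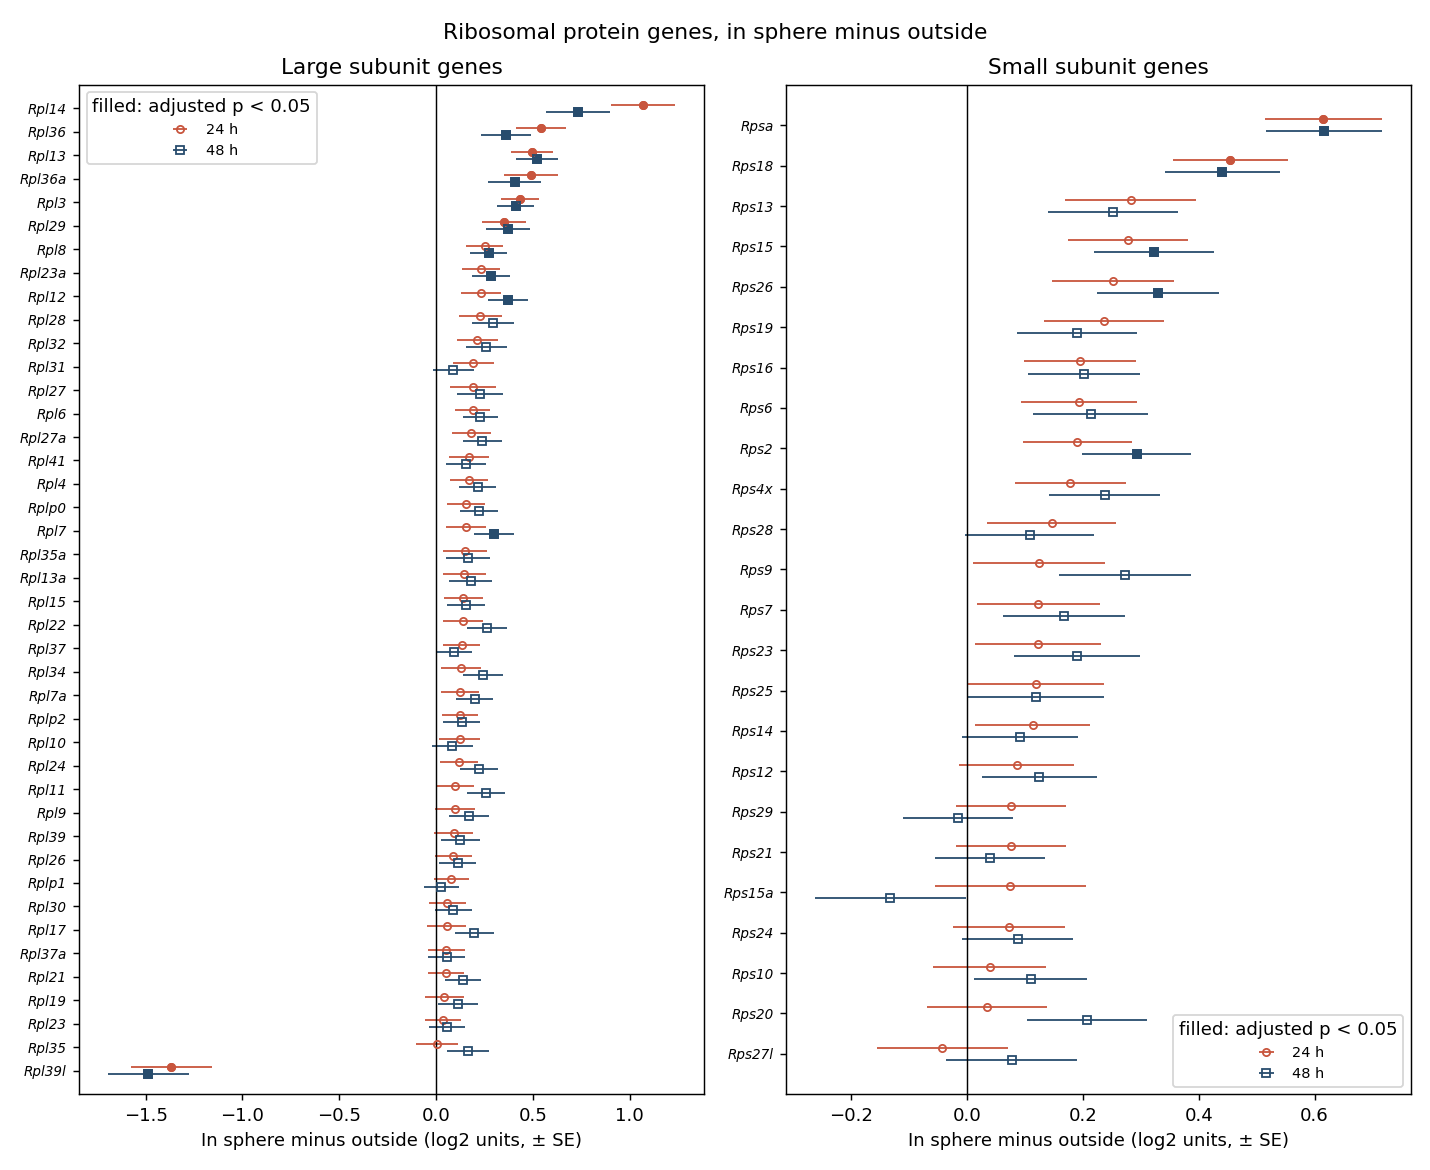
Log2 difference of in-sphere minus outside macrophages (horizontal, with its standard error) for each of the 42 large (left) and 24 small subunit genes (right), at 24 h (circles) and 48 h (squares). Filled symbols passed an adjusted p under 0.05. Nearly all genes lie to the right of 0 by at most 0.62, Rpl14 stands to the right and Rpl39l to the left, and the 2 panels have different horizontal ranges.

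The subunits differed little from each other in these comparisons. Of 42 tested large subunit genes 6 were higher and 1 lower at 24 h, with a median log2 difference of 0.14, and of 24 small subunit genes 2 were higher and 0 lower, with a median of 0.12. The higher shares of 14.3% and 8.33% were under the 15.8% of all genes. At 48 h 10 large subunit genes were higher and 1 lower, with a median of 0.21, and 5 small subunit genes were higher and 0 lower, with a median of 0.19. These shares of 23.8% and 20.8% stood beside 15.2% of all genes. The subunit medians thus differed by 0.020 at 24 h and 0.018 at 48 h, where the SD between replicate arrays of the large minus small median was 0.018. Full separation toward the spheres was seen for 24 of 42 large and 11 of 24 small subunit genes at 24 h, and for 39 and 20 at 48 h. Of all genes 22% separated in this way at 24 h and 20.7% at 48 h.

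Array by array the subunits also lay close together. At 24 h the gap between compartments was slightly wider for the small subunit, but this leaned on in-sphere replicate 1. For each array the deviation of every gene from its own mean over 12 arrays was taken, and the median over a subunit was used. For the large subunit this median was 0.061 ± 0.064 in spheres and -0.085 ± 0.051 outside at 24 h, and 0.116 ± 0.023 in spheres and -0.086 ± 0.021 outside at 48 h (SD, n = 3 each). For the small subunit it was 0.085 ± 0.093 in spheres and -0.075 ± 0.053 outside at 24 h, and 0.102 ± 0.024 in spheres and -0.088 ± 0.013 outside at 48 h (SD, n = 3 each). The in-sphere arrays of 24 h were the most spread, and their medians over all 66 genes were 0.158, 0.0533 and 0.0081 in replicates 1, 2 and 3, against -0.0677, -0.036 and -0.140 outside. At 48 h these medians were 0.129, 0.110 and 0.0812 in spheres, against -0.0638, -0.103 and -0.0911 outside. At neither time did the in-sphere and outside medians overlap. Large minus small medians at 24 h were -0.061, -0.0055 and -0.0075 in spheres and -0.020, -0.0059 and -0.0045 outside, in replicates 1, 2 and 3. At 48 h these medians on single arrays ran from 0.011 to 0.018 in spheres and from -0.014 to 0.011 outside. Large minus small medians overlapped between the compartments at 24 h, and at 48 h the ranges all but met at 0.011. In spheres all 3 values of 48 h were above all 3 of 24 h, with the large subunit relatively lower at 24 h and higher at 48 h, while outside the times overlapped. No test was made of this shift.

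**Figure D3:**
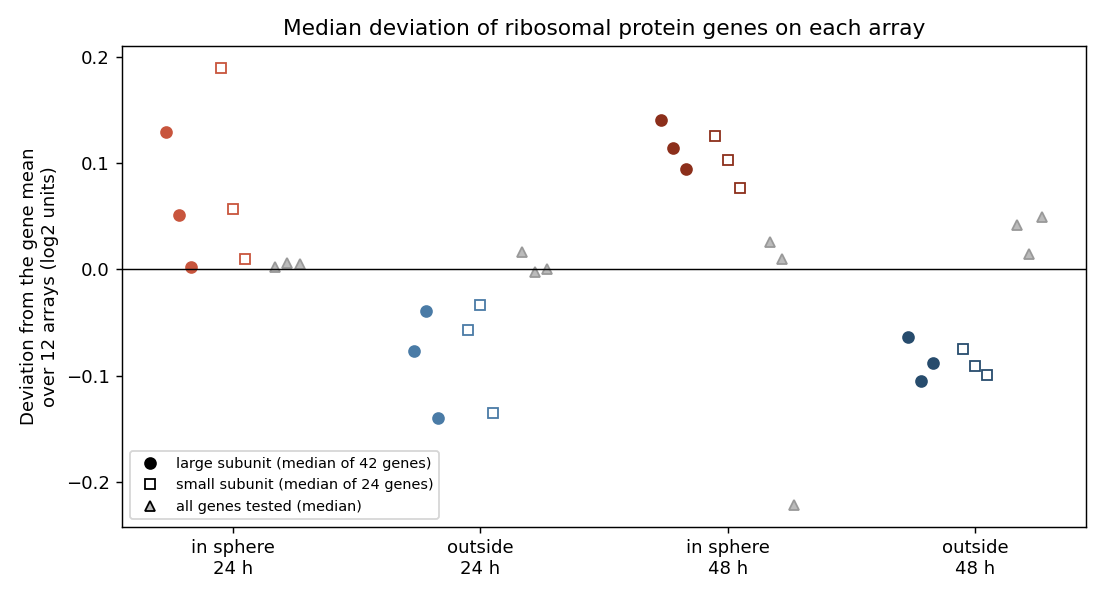
Median deviation from the gene mean (vertical, log2 units) on each of the 12 arrays, for large subunit genes (filled circles), small subunit genes (open squares) and all genes tested (triangles), in spheres and outside at 24 h and 48 h. Both subunits lie above 0 on the 6 in-sphere arrays and below 0 on the 6 outside arrays, and the all-gene median of -0.22 belongs to in-sphere replicate 3 at 48 h.

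Rpsa, a small subunit protein that has also been studied as a laminin receptor, had the largest difference of any small subunit gene. Its log2 signal was 12.45, 12.31 and 12.27 in spheres and 11.74, 11.80 and 11.65 outside at 24 h, and 12.25, 12.17 and 12.16 in spheres and 11.54, 11.62 and 11.57 outside at 48 h. All in-sphere arrays were above all outside arrays. The log2 difference was 0.62 ± 0.10 (SE) at 24 h (adjusted p = 7.24e-04 by limma) and 0.62 ± 0.10 at 48 h (adjusted p = 4.95e-04), or 1.53-fold at each time, and it passed in every alternative that was run. Averaged with a second Rpsa probe set, which was under the filter level on every array, the difference was 0.36 and 0.26.

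Rps18, a protein of the head of the small subunit that contacts the large one, was higher by a similar margin at both times. It had 12.48, 12.49 and 12.42 in spheres and 12.03, 12.09 and 11.89 outside at 24 h, and 12.51, 12.41 and 12.46 in spheres and 11.97, 12.02 and 12.07 outside at 48 h. The difference was 0.45 ± 0.10 at 24 h (adjusted p = 0.00455 by limma) and 0.44 ± 0.10 at 48 h (adjusted p = 0.00421). The in-sphere arrays stood above the outside arrays at both times.

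Of 10 head proteins of the small subunit, Rps18 was called at 24 h, and Rps18 and Rps15, which lies near the decoding site, at 48 h, with medians of 0.13 and 0.16. These 1 and 2 calls of 10 stood beside 15.8% and 15.2% of all genes called higher. Rps15 had 0.32 ± 0.10 at 48 h (adjusted p = 0.0275 by limma). The other end of this group was Rps29, the brightest ribosomal protein probe set, at 0.076 and -0.016, not called at either time. These structural groups were drawn up after the values were seen, so their counts are descriptions. Among the 3 proteins where messenger RNA enters and is decoded, Rps2 was higher at 48 h (0.29 ± 0.094, adjusted p = 0.0276), while Rps9 and Rps23 were not called, and the group median was 0.12 at 24 h and 0.27 at 48 h. Rps26, which lies where messenger RNA leaves the small subunit, was higher at 48 h (0.33 ± 0.10, adjusted p = 0.0262).

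Rps6, whose phosphorylation by S6 kinase is a common readout of mTOR signalling, was not called. Its log2 signal was 12.73, 12.56 and 12.57 in spheres and 12.46, 12.44 and 12.38 outside at 24 h, and 12.62, 12.65 and 12.53 in spheres and 12.45, 12.34 and 12.38 outside at 48 h. The arrays did not overlap, and the differences were 0.19 ± 0.10 at 24 h (adjusted p = 0.175 by limma) and 0.21 ± 0.10 at 48 h (adjusted p = 0.115). Rps4x, the X-linked small subunit protein, was likewise separated on all arrays and not called, at 0.18 ± 0.096 (adjusted p = 0.195) and 0.24 ± 0.096 (adjusted p = 0.0711). Both passed at both times with the trended prior. Rps15a is a case apart, since its only single-symbol probe set had a mean of 2.96 and exceeded the filter on 10 of 12 arrays, and its differences of 0.075 and -0.13 were not called.

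Rpl3, which reaches from the surface of the large subunit toward the peptidyl transferase centre, had a log2 signal of 12.19, 12.19 and 12.13 in spheres and 11.77, 11.65 and 11.79 outside at 24 h. At 48 h the values were 12.16, 12.15 and 12.10 in spheres and 11.73, 11.66 and 11.78 outside. Each group spanned less than 0.2, and the compartments did not overlap. The difference was 0.43 ± 0.097 at 24 h (adjusted p = 0.00508 by limma) and 0.41 ± 0.097 at 48 h (adjusted p = 0.00536). With arrays centred on the median of all tested genes the 24 h call was lost (adjusted p = 0.0508, from 1.27e-04 to 0.0508 over all alternatives).

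Of the other proteins near that centre, Rpl8 was higher at 48 h (0.27 ± 0.095, adjusted p = 0.0398 by limma, and 0.0548 with the replicate block), and Rpl10, a protein added late in assembly, was not called (0.12 and 0.083). In the 9 proteins of the exit tunnel and its rim, 0 were called at 24 h by limma, 1 having an unadjusted p under 0.05, and 1 was called at 48 h. The called one was Rpl23a, which lies at the mouth of the tunnel, at 0.28 ± 0.099 (adjusted p = 0.0412, and 0.0557 with the replicate block) at 48 h. The median of these 9 was 0.091 at 24 h and 0.17 at 48 h, and their arrays separated for 4 genes at 24 h and 9 at 48 h. Of all genes 15.8% and 15.2% were called higher at 24 h and 48 h, and 22% and 20.7% separated toward the spheres.

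The P stalk, which binds elongation factors, is made of Rplp0, Rplp1 and Rplp2. Limma called 0 of the 3 at either time, with an unadjusted p under 0.05 for Rplp0 at 48 h, although the in-sphere arrays of each were above the outside arrays at both times. Such separation was seen for 22% of all genes at 24 h and 20.7% at 48 h. Rplp0, widely used as a reference gene in quantitative PCR, had 12.34, 12.50 and 12.52 in spheres and 12.33, 12.34 and 12.22 outside at 24 h, and 12.44, 12.43 and 12.46 in spheres and 12.22, 12.23 and 12.22 outside at 48 h. Its difference was 0.16 ± 0.098 at 24 h (adjusted p = 0.270) and 0.22 ± 0.098 at 48 h (adjusted p = 0.0989), and the 48 h value passed with the trended prior and with array weights. Rplp1 had 0.079 and 0.026, and Rplp2 0.12 and 0.13. Rpl12, at the base of the stalk, was higher at 48 h (0.37 ± 0.10, adjusted p = 0.0142).

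Rpl36a and Rpl36 were among the called large subunit genes, and their arrays were more spread than those of Rpl3. Rpl36a, next to the exit site of transfer RNA, had 11.78, 11.48 and 11.32 in spheres and 11.08, 11.16 and 10.88 outside at 24 h, and 11.68, 11.48 and 11.40 in spheres and 11.18, 11.09 and 11.07 outside at 48 h. The difference was 0.49 ± 0.14 at 24 h (adjusted p = 0.0180 by limma) and 0.40 ± 0.14 at 48 h (adjusted p = 0.0359). The 24 h call was lost without in-sphere replicate 1 of 24 h (adjusted p = 0.0699) or outside replicate 3 of 24 h (adjusted p = 0.0750), and in a fit of the compared groups alone (adjusted p = 0.0507). All its alternatives ran from 0.00382 to 0.0750 at 24 h. The 48 h call was lost without in-sphere replicate 1 (adjusted p = 0.120) or 2 (0.0631) of 48 h, or outside replicate 1 (0.0599), 2 (0.0916) or 3 (0.100), with a range of 0.00316 to 0.120. Rpl36 had 11.81, 11.40 and 11.47 in spheres and 11.09, 11.13 and 10.84 outside at 24 h, and 11.49, 11.45 and 11.57 in spheres and 11.08, 11.21 and 11.14 outside at 48 h. Its difference was 0.54 ± 0.13 at 24 h (adjusted p = 0.00767) and 0.36 ± 0.13 at 48 h (adjusted p = 0.0449, and 0.0554 with the replicate block). A second probe set of Rpl36 gave 0.59 and 0.48.

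Rpl13 was higher by its brightest probe set and lower by its other one. The brightest had 12.43, 12.36 and 12.26 in spheres and 11.86, 11.95 and 11.75 outside at 24 h, and 12.48, 12.44 and 12.32 in spheres and 11.93, 11.78 and 11.96 outside at 48 h. The difference was 0.50 ± 0.11 at 24 h (adjusted p = 0.00469 by limma) and 0.52 ± 0.11 at 48 h (adjusted p = 0.00260). The other probe set, with a mean signal of 9.07, gave -0.24 and -0.44. With the mean of both, the difference was 0.13 at 24 h (adjusted p = 0.388, from 2.20e-04 to 0.388 over all alternatives) and 0.043 at 48 h (adjusted p = 0.775, from 9.76e-05 to 0.775), so the direction for Rpl13 rests on the choice of probe set.

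Rpl14 had the largest difference toward the spheres of the 66 genes. Its only single-symbol probe set was much dimmer than most, at 6.90, 6.38 and 6.47 in spheres and 5.57, 5.55 and 5.42 outside at 24 h, and 6.55, 6.22 and 5.95 in spheres and 5.53, 5.46 and 5.53 outside at 48 h. Replicate 1 was the highest in spheres at both times, and the outside arrays were tight. The difference was 1.07 ± 0.17 at 24 h (adjusted p = 5.02e-04 by limma) and 0.73 ± 0.17 at 48 h (adjusted p = 0.00410), or 2.10-fold and 1.66-fold, and it passed in every alternative that was run. Probe sets that name several genes were not used, and 15 of them named a gene of the symbol pattern.

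**Figure D4:**
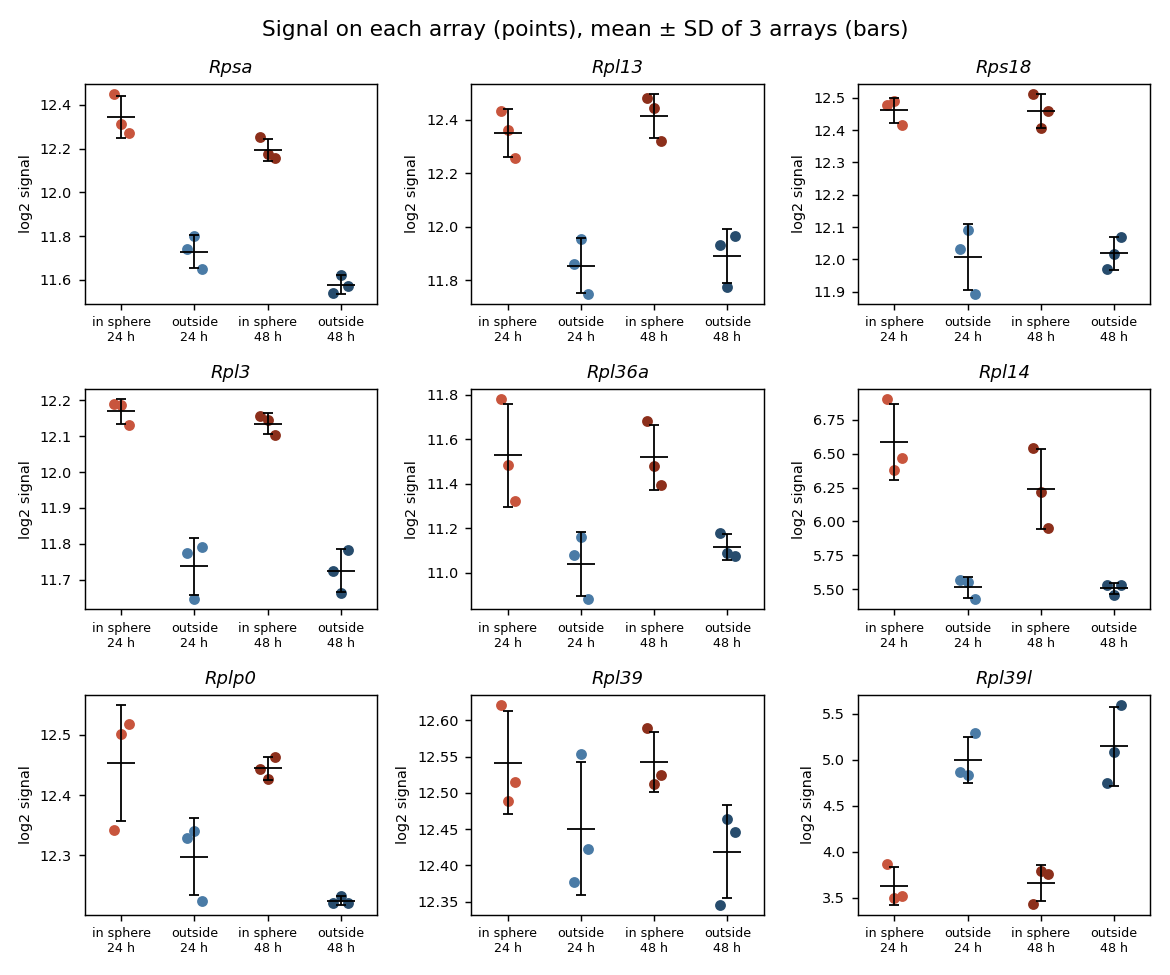
Log2 signal (vertical, ranges differ by panel) of 9 ribosomal protein genes on each array (points) with the mean and SD of 3 arrays (bars), in spheres and outside at 24 h and 48 h. In-sphere arrays lie above outside arrays for Rpsa, Rpl13, Rps18, Rpl3, Rpl36a, Rpl14 and Rplp0, overlap with them for Rpl39 at 24 h, and lie below for Rpl39l.

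The remaining large subunit calls were smaller. Rpl29 was higher at both times (0.35 ± 0.11 and 0.37 ± 0.11, adjusted p = 0.0369 and 0.0227 by limma), and Rpl7 was higher at 48 h (0.30 ± 0.10, adjusted p = 0.0393). With the replicate number as a block, 4 calls at 48 h were lost, those of Rpl7 (adjusted p = 0.0504), Rpl8 (0.0548), Rpl36 (0.0554) and Rpl23a (0.0557), and the other calls at both times passed. Rpl29, Rpl7 and the 48 h calls of Rpl36, Rpl12, Rps26, Rps15, Rps2, Rpl23a and Rpl8 fall outside the rule that chose the genes to name, and they were named after their values were seen. Rpl13a, also known in human cells for silencing inflammatory transcripts as a free protein, was not called (0.15 ± 0.11 and 0.18 ± 0.11, adjusted p = 0.380 and 0.240). Rpl22 was not called (0.14 ± 0.10 and 0.26 ± 0.10, adjusted p = 0.373 and 0.0653), and its 48 h difference passed in 5 of the alternatives.

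The paralog Rpl39l was the gene of the set that moved down. Rpl39 lines the exit tunnel, and Rpl39l encodes a close relative best known from the testis, where it is used in male germ cells. Rpl39l had 3.87, 3.50 and 3.52 in spheres and 4.87, 4.84 and 5.29 outside at 24 h, and 3.44, 3.79 and 3.75 in spheres and 4.75, 5.09 and 5.60 outside at 48 h. All 12 arrays were above the filter level of 2.77, and all in-sphere arrays were below all outside arrays. The difference was -1.37 ± 0.21 at 24 h (adjusted p = 4.78e-04 by limma) and -1.49 ± 0.21 at 48 h (adjusted p = 1.77e-04), that is 0.388 and 0.357 of the outside signal, and it passed in every alternative that was run. Rpl39 itself had 12.62, 12.49 and 12.52 in spheres and 12.38, 12.55 and 12.42 outside at 24 h, and 12.59, 12.51 and 12.53 in spheres and 12.35, 12.46 and 12.45 outside at 48 h. Its arrays overlapped at 24 h, and its differences of 0.091 ± 0.10 and 0.12 ± 0.10 were not called (adjusted p = 0.563 and 0.367). Rps27l, a paralog of Rps27 that p53 induces, was at -0.043 and 0.077 and was not called.

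Between 24 h and 48 h none of the genes changed by this test. Limma called 0 of 66 in spheres, 0 outside and 0 for the change of the in-sphere difference, and 0 had an unadjusted p under 0.05 in any of these 3 contrasts. Other fits that were run, including those with the trended prior and with array weights, also called 0. Of all genes, 0% were called in spheres, 0.336% outside and 0% for the change. The median log2 difference of 48 h minus 24 h was 0.033 in spheres and 0.0092 outside, and that of the change was 0.032. In spheres 10 genes were above at 48 h without overlap, or 15.2%, against 4.46% of all genes, and 1 was below, against 9.3%. Outside, 2 were above, or 3.03%, against 13.4% of all genes, and 1 was below, against 8.66%.

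The largest in-sphere values over time were those of Rpl11, a large subunit protein that can bind Mdm2 (0.20 ± 0.098), Rpl35 (0.15 ± 0.11) and Rpl17 (0.15 ± 0.10), and on the other side Rpl14 (-0.34 ± 0.17), Rpsa (-0.15 ± 0.10) and Rpl31 (-0.091 ± 0.11). Rpl11 had 12.17, 12.13 and 12.13 at 48 h in spheres, against 11.84, 11.99 and 11.99 at 24 h. Outside, the largest were Rpl39l (0.15 ± 0.21), Rpl36 (0.12 ± 0.13) and Rps15a (0.12 ± 0.13), and on the other side Rpsa (-0.15 ± 0.10), Rps27l (-0.11 ± 0.11) and Rps20 (-0.087 ± 0.10). Rpsa was thus lower at 48 h by the same amount in both compartments, without passing the test (adjusted p = 0.615 in spheres and 0.647 outside by limma). For the change of the in-sphere difference, 47 of 66 genes had the larger difference at 48 h, led by Rps20 (0.17 ± 0.15), Rpl35 (0.16 ± 0.15) and Rpl11 (0.16 ± 0.14). Rpl14 (-0.33 ± 0.23), Rps15a (-0.21 ± 0.18) and Rpl36 (-0.18 ± 0.18) lay on the other side.

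Probe sets of the same gene did not all go the same way. Among 32 genes with several probe sets above the filter, signs differed for 9 at 24 h and 8 at 48 h. Apart from Rpl13, these were small differences or dim probe sets. At 24 h the used and the opposing probe set gave 0.12 and -0.022 for Rpl10, 0.051 and -0.0076 for Rpl21, 0.13 and -0.046 for Rpl37, 0.052 and -0.051 for Rpl37a, 0.098 and -0.29 for Rpl9, 0.039 and -0.20 for Rps10, and 0.076 and -0.046 for Rps29. Rps27l had -0.043 by the used probe set and 0.043 and 0.039 by the others. At 48 h they gave 0.14 and -0.015 for Rpl21, 0.054 and -0.0020 for Rpl37a, 0.16 and -0.11 for Rpl41, and 0.11 and -0.35 for Rps10. The same 48 h comparison gave 0.21 and -0.087 for Rps20, 0.039 and -0.074 for Rps21, and 0.087 and -0.21 for Rps24. Probe sets whose name carries an x, s or a suffix can match several transcripts, and 28 genes of the set could be tested without them. Of these 28, 5 were higher at 24 h and 4 at 48 h, and 1 was lower at each time. In that fit 14.5% of all genes were higher at 24 h and 13.8% at 48 h, and 12.9% and 21.9% were lower.

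Ribosomal proteins whose symbols the rule does not take were also measured. Rpl22l1, a paralog of Rpl22, was higher in spheres at 24 h (0.44 ± 0.13, adjusted p = 0.0242 by limma) and 48 h (0.77 ± 0.13, adjusted p = 6.31e-04), with means of 10.09 ± 0.21 in spheres and 9.65 ± 0.15 outside at 24 h, and 10.32 ± 0.12 in spheres and 9.55 ± 0.027 outside at 48 h (SD, n = 3 each). Rpl36al, a close copy of Rpl36a, was higher at both times (0.34 ± 0.10, adjusted p = 0.0290, and 0.31 ± 0.10, adjusted p = 0.0330). Fau, which encodes a fusion of a ubiquitin-like protein and Rps30, was not called (0.26 ± 0.10, adjusted p = 0.0738, and 0.097 ± 0.10, adjusted p = 0.497). Rps3a1 (0.20 and 0.23) and Rpl7l1 (-0.068 and -0.067) were not called either.

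Elongation factors and other genes of TOP messenger RNAs were higher in part. Of 16 tested, 7 were higher and 0 lower at 24 h, with a median of 0.25, and 8 were higher and 0 lower at 48 h, with a median of 0.29. The higher shares were 43.8% and 50%, against 15.8% and 15.2% of all genes. The largest at 24 h were the RNA-binding protein Hnrnpa1 (0.90 ± 0.15), the nucleolar chaperone Npm1 (0.63 ± 0.12) and the initiation factor Eif4b (0.54 ± 0.14). At 48 h they were Hnrnpa1 (1.42 ± 0.15), Npm1 (0.86 ± 0.12) and the histone chaperone Nap1l1 (0.86 ± 0.13). Of 19 initiation factors 6 were higher and 0 lower at 24 h, with a median of 0.11, and 3 and 0 at 48 h, with a median of 0.12. The higher share was 31.6% at 24 h, against 15.8% of all genes, and 15.8% at 48 h, close to the 15.2% of all genes. The cap-binding protein Eif4e (0.76 ± 0.19 and 0.62 ± 0.19) and Eif1ax (0.50 ± 0.13 and 0.57 ± 0.13) were higher at both times, Eif3b at 24 h (0.62 ± 0.13) and Eif3m at 48 h (0.37 ± 0.11).

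Many genes that build the ribosome were higher in spheres. Of 52 tested, 24 were higher and 2 lower in spheres at 24 h, with a median of 0.32, and 18 were higher and 2 lower at 48 h, with a median of 0.21. The higher shares were 46.2% and 34.6%, against 15.8% and 15.2% of all genes. Dkc1, the pseudouridine synthase of box H/ACA particles, had 1.59 ± 0.14 and 1.61 ± 0.14. Nop58, of the box C/D particles that guide ribosomal RNA methylation, had 1.18 ± 0.14 and 1.26 ± 0.14. Nolc1 (1.08 ± 0.14 at 24 h) and Gar1, a partner of Dkc1 (1.35 ± 0.15 at 48 h), completed the largest. For RNA polymerases I and III, which make ribosomal RNA, 5 of 28 genes were higher and 1 lower at 24 h, with a median of 0.097, and 4 were higher and 2 lower at 48 h, with a median of -0.025. The higher shares of 17.9% and 14.3% lay near those of all genes, 15.8% and 15.2%. The largest were Polr3f (0.87 ± 0.16), Polr1e (0.65 ± 0.15) and Taf1d (0.58 ± 0.14) at 24 h, and the termination factor Ttf1 (-0.90 ± 0.14), Polr2h (0.73 ± 0.17) and Taf1d (0.71 ± 0.14) at 48 h, when Polr3f was at -0.078 and not called.

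Regulators of TOP messenger RNAs, mTOR and Myc went both ways. Of 26 tested, 4 were higher and 6 lower at 24 h, with a median of -0.086, and 4 were higher and 9 lower at 48 h, with a median of -0.34. The higher share was 15.4% at each time, near the 15.8% and 15.2% of all genes, and the lower shares were 23.1% and 34.6%, against 13.6% and 22.3% of all genes. The sestrins, which restrain mTORC1 when amino acids are short, were split, with Sesn3 at 1.66 ± 0.20 and 2.03 ± 0.20 and Sesn1 at -1.28 ± 0.16 and -1.32 ± 0.16. Myc, a transcription factor that drives ribosome production, was higher at 24 h (1.20 ± 0.22) and at 48 h (0.88 ± 0.22), and Mxd1, which opposes Myc, was lower at both times (-1.15 ± 0.32 and -1.26 ± 0.32). Among 13 genes of ribosome rescue and of eIF2 kinases, 2 were higher and 1 lower at 24 h, with a median of 0.027, and 1 was higher and 2 lower at 48 h, with a median of -0.048. No share of these 13 in either direction, 7.69% to 15.4%, was above that of all genes. They were the recycling factor Abce1 (0.80 ± 0.17 and 0.62 ± 0.17), Hbs1l (0.43 ± 0.099 at 24 h), and the eIF2 kinases Eif2ak2 (-1.51 ± 0.50 at 24 h), Eif2ak1 (-0.78 ± 0.24 at 48 h) and Eif2ak3 (-0.61 ± 0.16 at 48 h). Eif2ak2 was variable, with overlapping arrays at 24 h (3.37, 5.32 and 4.38 in spheres and 5.80, 4.90 and 6.89 outside), and was at 0.65 ± 0.50 at 48 h, not called.

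Mitochondrial ribosomal proteins, which belong to a separate ribosome, had medians of 0.14 at 24 h and 0.12 at 48 h over 49 genes. Of these 7 were higher and 0 lower at 24 h, led by Mrps6 (0.77 ± 0.21), Mrpl17 (0.68 ± 0.13) and Mrps27 (0.63 ± 0.21), and 11 were higher and 1 lower at 48 h, led by Mrpl13 (0.58 ± 0.13), Mrpl44 (-0.52 ± 0.12) and Mrps10 (0.49 ± 0.11). The higher share was 14.3% at 24 h, under the 15.8% of all genes, and 22.4% at 48 h, against 15.2%. The median of the cytosolic set was 0.14 at 24 h and 0.20 at 48 h. No test was made between the lists.

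**Figure D5:**
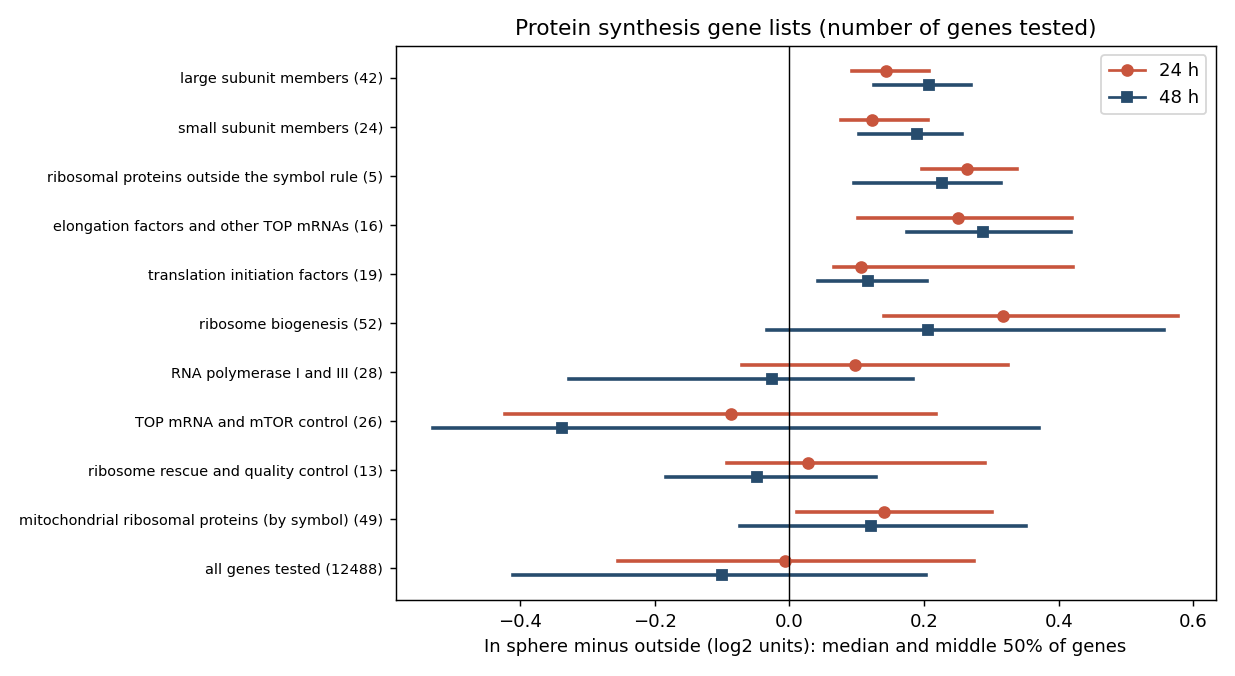
Median (symbol) and middle 50% of genes (line) of the log2 difference of in-sphere minus outside macrophages for the cytosolic ribosomal protein genes by subunit, for other protein synthesis lists and for all genes tested, at 24 h (circles) and 48 h (squares). The 2 subunits have narrow ranges just above 0, ribosome biogenesis genes reach further to the right at both times, and TOP and mTOR control genes have medians below 0.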

How the data were processed

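Expression of 12 macrophage samples was measured on arrays with 45141 probe sets. Per the submitters' processing notes the authors used RMA and Affymetrix Expression Console 1.1, and the deposited values are log2 signals, the base being read from their range. RMA brings arrays toward 1 distribution, so total RNA per cell cannot be compared. In the deposited values in-sphere replicate 3 of 48 h still lay lower, with a mean of 4.06 and a median of 3.03. Symbols came from the platform annotation. Group means were fitted for 12488 genes in limma 3.58.1 (R 4.3.3, 8 residual and 4.09 prior degrees of freedom), with contrasts between the compartments at each time, between times in each compartment, and for the change of the difference. P-values were adjusted over all genes, and errors of differences are standard errors of that fit. The code was tested on simulated data.

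Members, gene lists and tests were chosen with earlier results of these data known. Genes named are up to 6 called members per contrast and direction (3 as values where fewer were called), a fixed set of 12, paralogs with a closing l, members near the filter or with opposing probe sets, and up to 3 called genes per other list.

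Replicate numbers pair the samples, since the design text places both compartments in the same cultures of each independent experiment. Deviations of same-numbered arrays correlated at 0.0215 to 0.120 between compartments at 24 h, 0.0417 to 0.117 at 48 h, 0.0247 to 0.140 between times in spheres and 0.419 to 0.473 outside. The main fit had no block. Alternatives were no filter, a replicate block, other probe set rules, centring, the prior, array weights, fewer groups and leaving out each array.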

Additional observations from a re-analysis of the deposited data

How the results depend on the processing

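Among values of the genes named by the rule under the alternatives, 1672 kept their side of the threshold, 14 newly passed it, 11 no longer did, and 0 called values changed direction. Many of the 1672 belong to the contrasts over time, where no named gene passed in any setting, so this total says little about the calls. All 14 and 11 changes lay in the comparisons of in-sphere and outside cells. Genes named outside the rule are not in these counts. The number of genes higher in spheres, 8 at 24 h and 15 at 48 h, was 23 and 34 with a trended and robust prior, 16 and 34 with array weights, and 5 and 4 of 28 genes without suffixed probe sets, where fewer genes were tested. Of all genes 16.2% and 15.7% were higher with that prior, 20.4% and 21.4% with array weights, and 14.5% and 13.8% without suffixed probe sets. The number for the set was 10 and 23 with arrays centred on genes of similar brightness, where 16.7% of all genes were higher at 48 h. It was 6 and 20 when centred on all genes, where 14.1% and 18.3% of all genes were higher. Leaving out 1 array gave 6 to 10 at 24 h and 6 to 17 at 48 h, where 12.5% to 12.9% of all genes were higher in the 48 h fits with 6 to 8. With the replicate block, which follows the pairing, the number for the set was 8 and 11. In that fit 9 of 9 and 12 of 16 calls in either direction were shared, the 48 h calls of Rpl7, Rpl8, Rpl23a and Rpl36 being lost. Counts given here without a share of all genes describe only how stable the calls were. Rpl39l was the 1 lower gene in every setting run.

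Centring arrays on all genes, whose median difference at 48 h was -0.10, changed the members' medians to 0.0796 at 24 h, 0.316 at 48 h, 0.183 over time in spheres and 0.208 for the change of the difference. That change was -0.0212 without suffixed probe sets. Leaving out 1 array gave medians of 0.104 to 0.186 at 24 h, 0.186 to 0.214 at 48 h, and 0.0034 to 0.0849 over time in spheres, the last without in-sphere replicate 1 of 24 h. Large minus small medians without suffixed probe sets were 0.127 at 48 h, 0.146 over time in spheres and 0.0846 for the change, and the last was 0.0481 with the mean of probe sets. That mean put the members' median level at 11.48, against 12.07. The cause of these shifts was not tested. With 3 arrays a group, precision is limited by their number, and the brightest probe sets lie near the top of the array's range.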
